A study of Arabidopsis thaliana with 16 samples.

Results

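Extensins and arabinogalactan proteins are the main hydroxyproline-rich glycoproteins of the plant cell wall, and their transcripts were followed here in germinating seeds of Arabidopsis thaliana. The 90 genes described were those of the 27655 counted genes whose deposited description contains the word extensin or arabinogalactan, in any case. They comprised 25 extensins and extensin-like proteins, 10 leucine-rich repeat extensins, 21 arabinogalactan proteins and peptides, 20 fasciclin-like arabinogalactan proteins, 13 proteins described as pollen Ole e 1 allergen and extensin family, and PAGR, which is described as synthesis-related. PAGR is an enzyme-like protein named for pectic arabinogalactan, so it is not a wall glycoprotein core.

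Whole seeds of the wild-type ecotype Col-0 took up water in the cold (4 °C, 3 days) and were then sown on Murashige and Skoog medium at 22 °C under continuous light. After 24 hours the seeds were placed in liquid medium for a treatment of 6 hours, and the age given at harvest is 30 hours after imbibition. The 4 groups were ABA+glucose (5 µM abscisic acid and 60 mM glucose), ABA (5 µM), glucose (60 mM) and a control with no added compound in its labels, each with 4 biological replicates. The labels name no osmotic control for glucose. Library totals ran from 9360552 to 17794702 counts, and the 90 genes together took 0.119% to 0.162% of the counts with ABA+glucose, 0.130% to 0.242% with ABA, 0.145% to 0.167% with glucose and 0.131% to 0.162% in controls. ABA replicate 3 held the highest of these shares and stood apart from the other ABA libraries on the second principal component of all tested genes, at -27.2 against -5.16 to 3.44. Control replicate 1 was the lowest of the controls on that component, at -25.3 against -13.9 to -8.17. For each member called with ABA against control, the change is also given without ABA replicate 3.

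Extensins carry serine and hydroxyproline repeats that are decorated with short arabinose chains, and peroxidases can cross-link them through tyrosines into a network that stiffens the wall. Arabinogalactan proteins bear large branched galactan and arabinose polysaccharides on hydroxyproline, and many are held at the plasma membrane by a lipid anchor. Fasciclin-like members add fasciclin domains, which are adhesion modules known from animals, and leucine-rich repeat extensins join an extracellular receptor-type domain to an extensin tail. In a germinating seed the embryo axis must expand and the endosperm around the radicle must weaken, and ABA is the hormone that holds germination back.

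Of the 90 genes, 42 had enough counts to be tested and 48 did not. Of those 48, 24 had no count in any of the 16 libraries, where a count of 0 allows up to 0.171 to 0.325 CPM in a library at a floor of 3 counts (CPM are counts scaled to library size with TMM factors). The tested genes were 13 of the 21 arabinogalactan proteins and peptides, 10 of the 20 fasciclin-like proteins, 7 of the 10 leucine-rich repeat extensins, 7 of the 25 extensins and extensin-like genes, 4 of the 13 Ole e 1 genes, and PAGR. The genes just inside the filter were FLA12, AGP19, AT2G34700 and AGP27, with means of 0.867, 0.814, 0.782 and 0.640 CPM over all libraries. Just outside it were ATEXT4, AT3G26960, AGP6 and FLA15, at 0.544, 0.452, 0.437 and 0.385 CPM.

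Of the 24 genes without any count, 12 were extensins or extensin-like. EXT2 was among them, and LRX1, the leucine-rich repeat extensin that shapes root hairs, had 9 counts over 6 libraries. Of 9 listed root hair markers, 5 had no count anywhere and 8 stayed under 1 CPM in every library. The exception was RHD6, an early regulator of root hair fate, at 9.26 to 18 CPM. Summed over the list, root hair markers reached 9.26 to 12.3 CPM with ABA+glucose, 12 to 18.3 CPM with ABA, 11.6 to 13.2 CPM with glucose and 12.7 to 16.1 CPM in controls. AGP30, which is known for a role in the timing of seed germination, also had no count, and AGP13, an arabinogalactan peptide, had 18 counts over 10 libraries. Several extensin loci with no count lie next to other extensin-like loci in the RefSeq TAIR10.1 annotation, such as AT4G08370 and AT4G08380. How reads that fit more than 1 repeat-rich copy were assigned was not tested.

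The 5 listed markers of germinating seeds had counts in every library. Of these, the seed reserve genes CRA1 and OLEO1 ranged widely, over 102 to 1895 CPM and 11.3 to 379 CPM, with the higher values in the libraries with ABA. ICL, the isocitrate lyase of storage lipid use, was at 22599 to 25628 CPM, and EXPA2, an expansin of the germinating endosperm, was at 769 to 994 CPM. Pollen markers were near 0: all 4 listed genes stayed under 1 CPM and their sum did not pass 0.224 CPM in any library.

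Levels can be compared between genes only per transcript length, for which the deposited TPM-type signal was used. The highest of the 42 tested genes on that scale was AGP10, a classical arabinogalactan protein, with a mean signal of 238 over the 16 libraries, which placed it at 663 of all counted genes. AGP31, a non-classical arabinogalactan protein, followed at 218. EPR1, an extensin-like gene known from the endosperm of germinating seeds, averaged 134, and EXT3, the extensin needed for wall assembly in the embryo, averaged 116. Those 4 genes and FLA8, at 100.2, stood above PEX3 (69.4) and AGP26 (67.2).

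Their ranges over single libraries overlapped. The signal of AGP10 ran over 205 to 349.8, that of AGP31 over 180.0 to 305, that of EPR1 over 76.1 to 363 and that of EXT3 over 76.1 to 264. The next genes by mean signal were AGP1 at 38.5, the arabinogalactan peptide AGP12 at 34 and AT2G43150, a proline-rich extensin-like gene, at 27.5. PEX3 carries the description pollen-specific, yet it was at 103 to 269 CPM in these seeds while the pollen markers were near 0. Reads of AGP10 and AGP26 may be shared with annotated loci that overlap them on the opposite strand, since their deposited values held decimals in 13 and 15 of the 16 libraries, and EXT3, which also has such a partner, held decimals in 6.

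**Figure D1:**
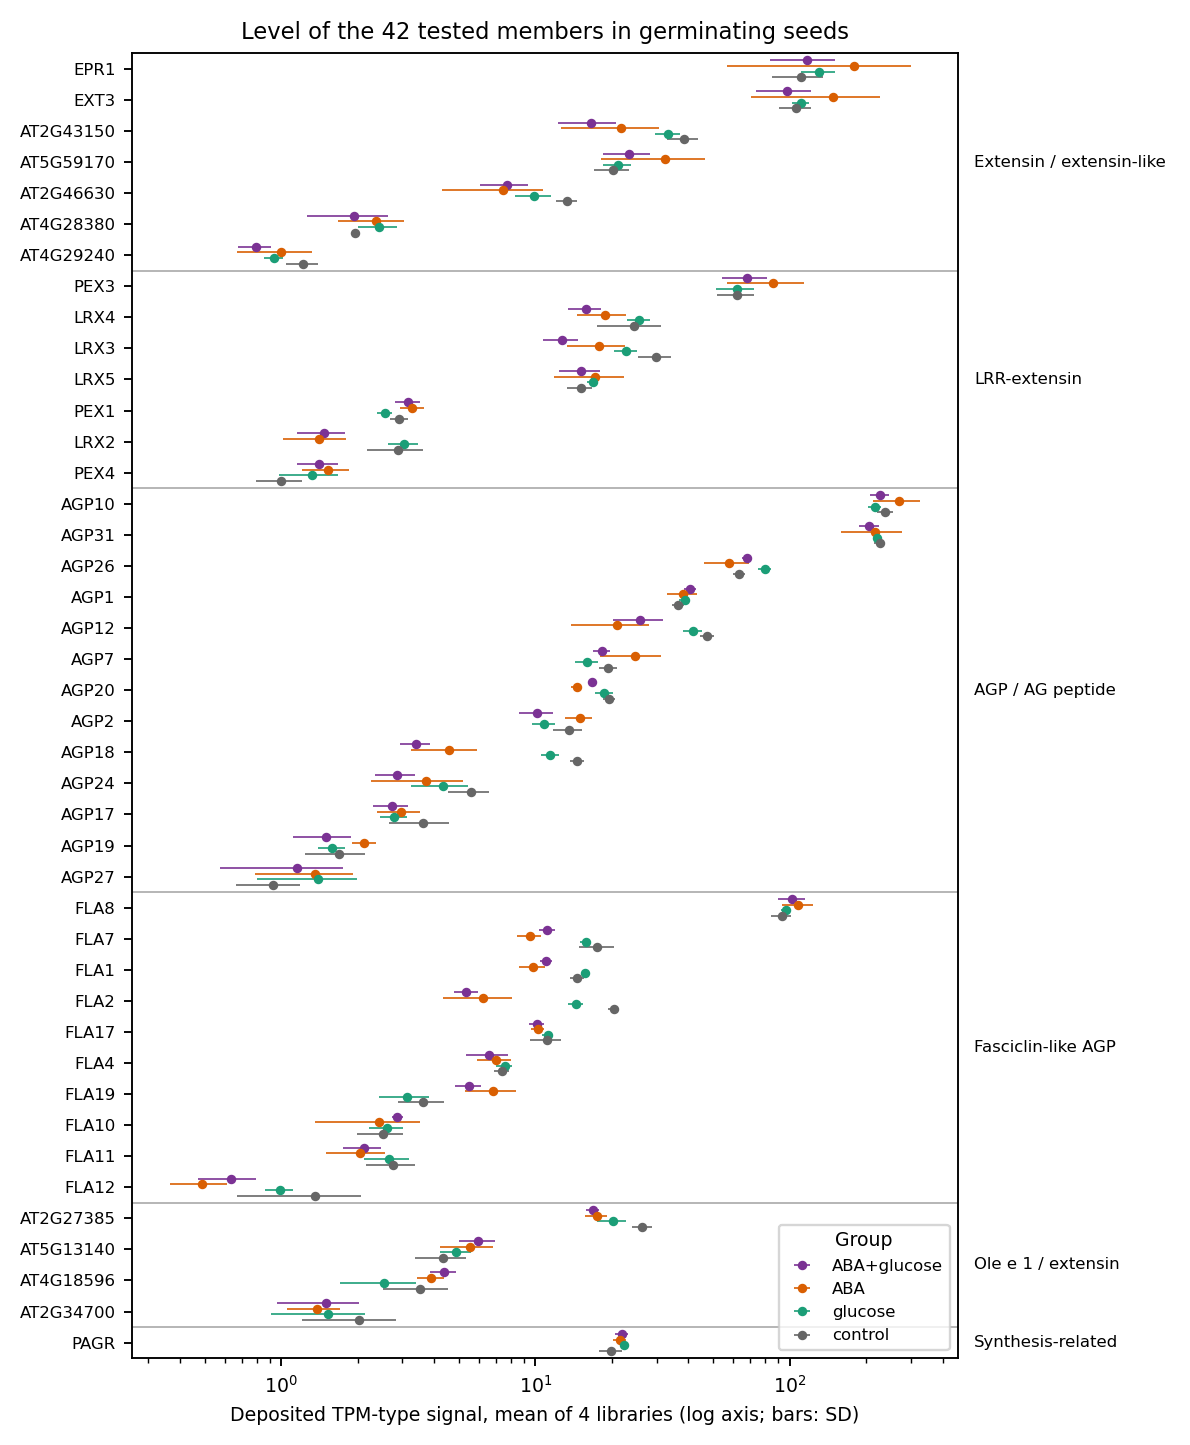
Length-scaled signal of the 42 tested genes, grouped by family and ordered by mean. The horizontal log axis is the deposited TPM-type signal, each point is the mean of 4 libraries, and bars are SD. AGP10 (238) and AGP31 (218) lie farthest right by their mean over all 16 libraries, and the ABA bars of EPR1 and EXT3 are wide.

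The comparison of ABA with control asks how the hormone alone moved these transcripts within 6 hours. Fasciclin-like FLA2 and the lysine-rich arabinogalactan protein AGP18 fell the most, to less than 1 in 3 of the control level by the fitted folds below. They were followed by FLA12, the arabinogalactan peptide AGP12, LRX2 and FLA7, and the clearest rise was that of FLA19. Of the 42 tested genes, 4 were called higher and 12 lower with ABA (edgeR quasi-likelihood test, adjusted p under 0.05 over 17083 genes). Among all tested genes, 16.1% were called higher and 18% lower. The members' shares, 9.52% higher and 28.6% lower, were below that background for rises and above it for falls. Without ABA replicate 1 the order for rises turned, with 8 of 43 members higher (18.6%) beside 15.2% of all genes, while 12 of 43 were lower (27.9%) beside 15.8%. The members added to the rises there were EPR1, EXT3, FLA8 and AGP7, and EPR1 and EXT3 had their highest ABA value in replicate 3. Without ABA replicate 3, 2 of 43 members were higher (4.65%) beside 17.5% of all genes. The median log2 fold change of the members was -0.10, against -1.18e-05 over all genes, and it was -0.23 without ABA replicate 3 and -0.01 without ABA replicate 1. In 3 members every ABA library lay above every control library and in 8 every one lay below, beside 13.3% and 15.4% of all tested genes. In whole-seed RNA, fewer cells of a type and less RNA per cell cannot be told apart.

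FLA2, a lipid-anchored fasciclin-like protein, had 7.84, 7.41, 6.55 and 8.5 CPM with ABA+glucose, 6.46, 11.2, 10.7 and 6.43 CPM with ABA, 21.1, 20.8, 21 and 18 CPM with glucose, and 27.3, 29.4, 27.9 and 29.9 CPM in controls. All 8 libraries with ABA lay below all 8 without it. The log2 fold change with ABA was -1.76 ± 0.132 (SE), which is 3.39-fold lower (adjusted p = 3.08e-10 by edgeR), and it was -1.87 without ABA replicate 3.

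AGP18, a lysine-rich arabinogalactan protein known for its role in ovule development, had 2.76, 3.31, 2.5 and 2.56 CPM with ABA+glucose, 3.94, 3.69, 4.98 and 2.35 CPM with ABA, 9.34, 9, 8.74 and 10.4 CPM with glucose, and 12.3, 11.5, 11.4 and 13 CPM in controls. The groups with and without ABA did not overlap here either. With ABA the log2 fold change was -1.70 ± 0.142 (3.25-fold lower; edgeR adjusted p = 2.14e-09), and -1.83 without ABA replicate 3. The related lysine-rich genes AGP17 and AGP19 were not called with ABA, at -0.32 ± 0.213 and 0.33 ± 0.27 on the log2 scale. AGP17 averaged 2.11 ± 0.399 CPM with ABA and 2.61 ± 0.713 CPM in controls (SD, n = 4 each), and AGP19 reached at most 1.11 CPM in any library, where its reads may be shared with an overlapping locus on the other strand.

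The remaining fasciclin-like genes divided. In all, 4 of the 10 tested were called lower with ABA and 1 higher, beside 18% and 16.1% of all tested genes. FLA7 had 10.2, 10.2, 10.4 and 11.7 CPM with ABA+glucose, 9.66, 7.56, 9.42 and 9.18 CPM with ABA, 15.8, 14.2, 14.9 and 15 CPM with glucose, and 14.7, 14.2, 19.2 and 18.6 CPM in controls. FLA1, known from root and shoot development in culture, had 13.3, 15.1, 13.8 and 14.2 CPM with ABA+glucose, 11.9, 11.3, 14.2 and 11.5 CPM with ABA, 19.5, 18.8, 20.4 and 19.9 CPM with glucose, and 17.9, 18, 17.2 and 19.1 CPM in controls. In both, every ABA library was below every control library. Their log2 fold changes with ABA were -0.89 ± 0.108 (edgeR adjusted p = 7.80e-07) and -0.57 ± 0.0811 (edgeR adjusted p = 7.77e-06). Without ABA replicate 3 they were -0.90 and -0.63.

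FLA12, known from the secondary walls of stems, was scarce in seeds. It had 0.624, 0.867, 0.515 and 0.54 CPM with ABA+glucose, 0.4, 0.369, 0.541 and 0.627 CPM with ABA, 0.857, 1.15, 0.929 and 1.01 CPM with glucose, and 1.35, 2.33, 1.04 and 0.74 CPM in controls. The ABA libraries were all below the controls, and the log2 fold change was -1.51 ± 0.344 (edgeR adjusted p = 0.00151), at counts close to the filter, and -1.56 without ABA replicate 3. FLA4, also called SOS5, supports root growth on salt and acts with ABA signalling there. It was among the 5 least changed genes, at 10.1 ± 1.47 CPM with ABA and 10.8 ± 0.709 CPM in controls (SD, n = 4 each).

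FLA19 was the fasciclin-like gene that rose. It had 4.54, 5.52, 4.78 and 4.25 CPM with ABA+glucose, 5.31, 5.16, 7.9 and 5.33 CPM with ABA, 3.17, 3.27, 2.4 and 2.03 CPM with glucose, and 4.11, 2.66, 2.74 and 3.17 CPM in controls. Every ABA library was above every control library, and the ABA+glucose libraries also lay above the controls. The log2 fold change with ABA was 0.87 ± 0.179 (1.83-fold; edgeR adjusted p = 0.000561), and without ABA replicate 3, its highest library, it was 0.73 ± 0.171 (edgeR adjusted p = 0.00148).

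Among the 13 tested arabinogalactan proteins and peptides, 3 (23.1%) were called with ABA, all lower. Of all tested genes, 18% were called lower and 16.1% higher. In addition to AGP18, these were the arabinogalactan peptides AGP12 and AGP20. AGP12 had 15.7, 9.07, 14.9 and 14.6 CPM with ABA+glucose, 15.1, 12.5, 6.28 and 9.8 CPM with ABA, 23.2, 23.2, 22.1 and 19 CPM with glucose, and 25.2, 24.1, 27.2 and 23.8 CPM in controls, so that ABA libraries were lower than controls without overlap. Its log2 fold change was -1.15 ± 0.167 (2.23-fold lower; edgeR adjusted p = 9.03e-06), and -0.99 without ABA replicate 3, the lowest library. AGP20 fell by 0.45 on the log2 scale (SE 0.0882; edgeR adjusted p = 0.000373), with 8.23 ± 0.322 CPM with ABA and 11.2 ± 0.671 CPM in controls (SD, n = 4 each). It was at -0.46 without ABA replicate 3.

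The arabinogalactan proteins with the highest signal were not called with ABA. AGP10 averaged 146 ± 31.3 CPM with ABA and 129 ± 9.75 CPM in controls, a log2 difference of 0.16 ± 0.102 that was not called and came to 0.01 without ABA replicate 3. AGP1 averaged 24.3 ± 3.29 and 23.4 ± 1.34 CPM in the ABA and control groups (SD, n = 4 each), with a log2 difference of 0.06 ± 0.085. AGP31 had 203, 248, 216 and 236 CPM with ABA+glucose, 197, 218, 329 and 202 CPM with ABA, 234, 249.5, 237 and 245 CPM with glucose, and 243, 232, 261 and 257 CPM in controls. Its log2 difference of -0.07 ± 0.112 was not called, and without ABA replicate 3 it was -0.27 ± 0.0624 and was called (edgeR adjusted p = 0.0012). AGP2, at 0.13 ± 0.129, and PAGR, at 0.11 ± 0.0753, completed the 5 least changed genes with means of at least 5 CPM.

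**Figure D2:**
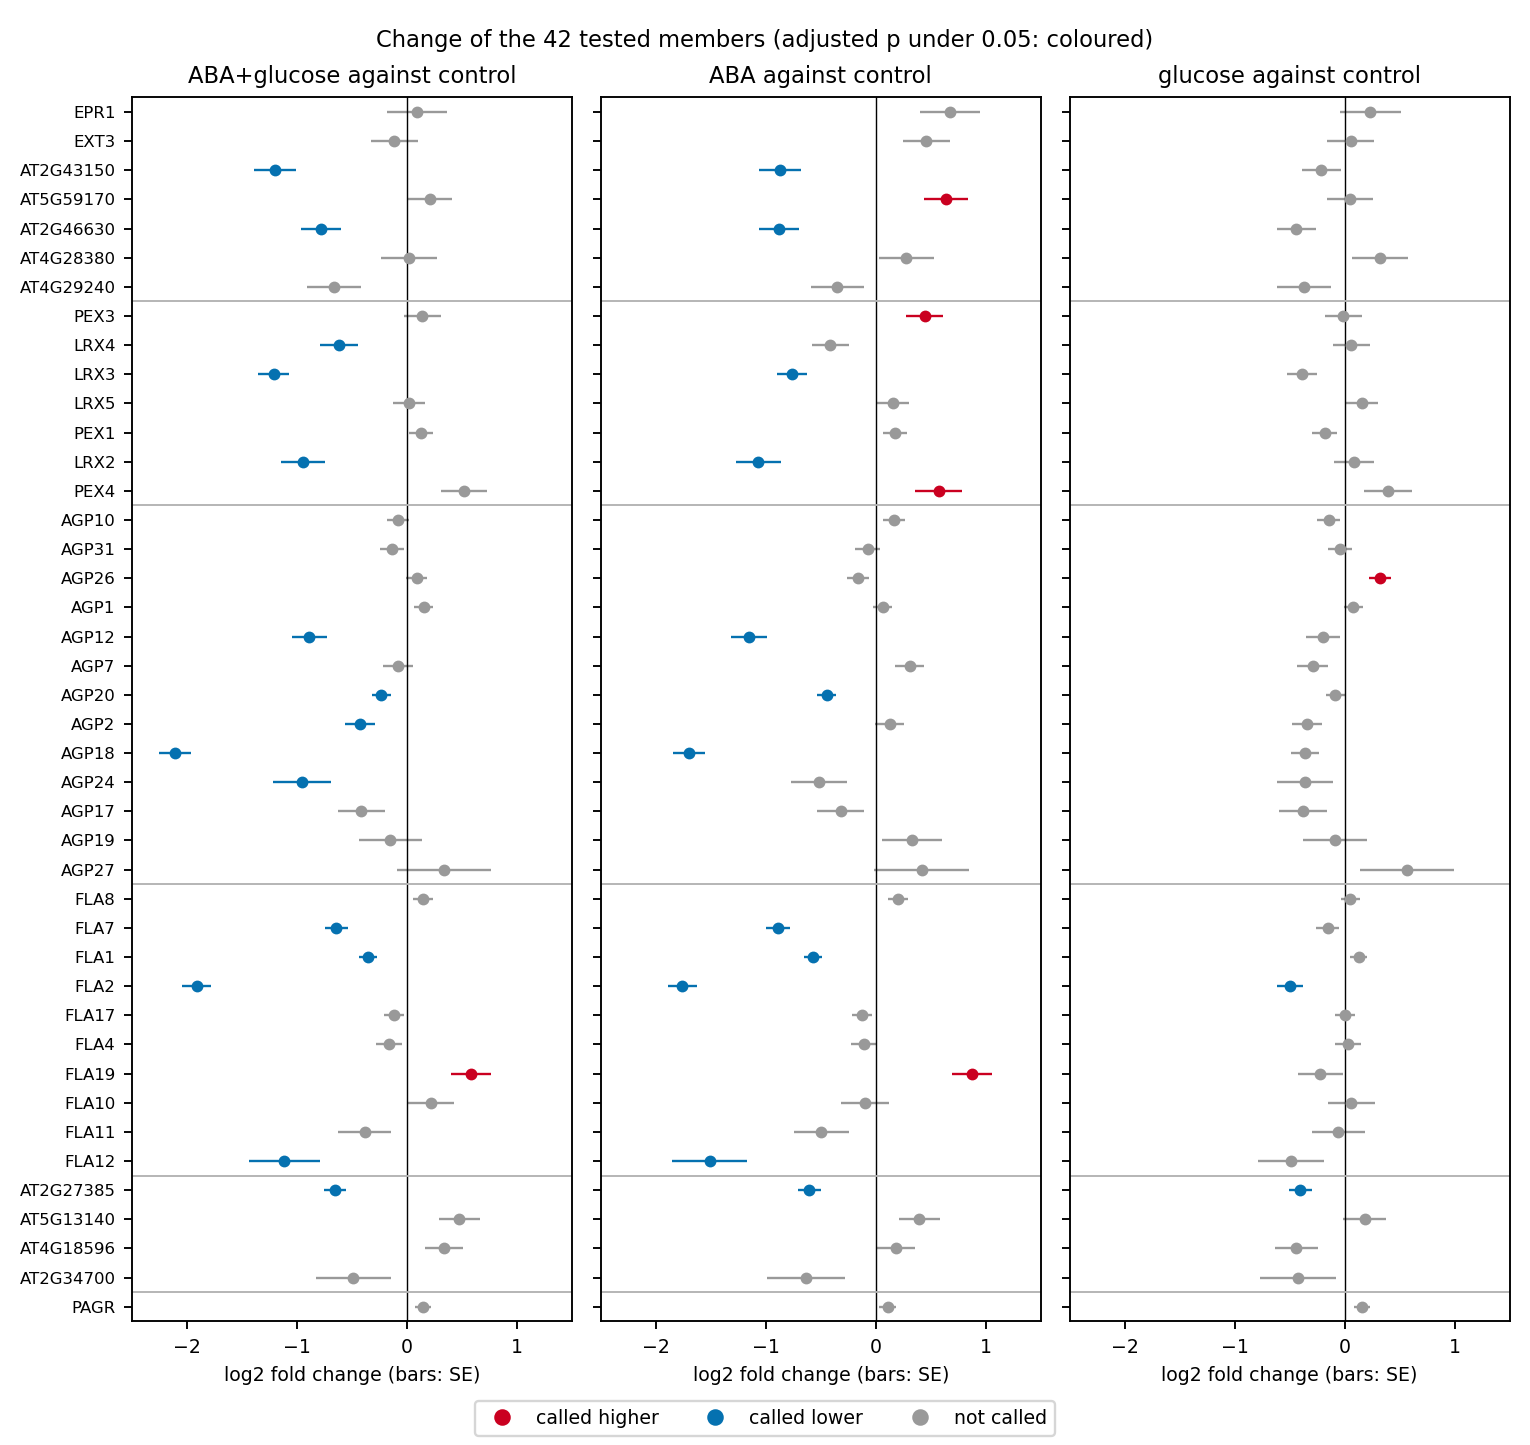
Fitted log2 fold change of each tested gene, with SE bars, for ABA+glucose, ABA and glucose, each against the same 4 control libraries. Coloured points have an adjusted p under 0.05: 15 lower and 1 higher with ABA+glucose, 12 lower and 4 higher with ABA, and 2 lower and 1 higher with glucose.

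The leucine-rich repeat extensins went in both directions with ABA. Of 7 tested genes, 2 were called lower and 2 higher, beside 18% and 16.1% of all tested genes. LRX3, which with LRX4 and LRX5 binds RALF peptides and takes part in wall integrity sensing, had 31.4, 36.8, 25 and 32.1 CPM with ABA+glucose, 34.6, 40.2, 58.8 and 39.9 CPM with ABA, 53.4, 58.1, 49.4 and 61.8 CPM with glucose, and 56.8, 74.7, 79.7 and 80.1 CPM in controls. Control replicate 1, the lowest control, lay below ABA replicate 3, and the other libraries of these groups were separate. The log2 fold change was -0.76 ± 0.135 (edgeR adjusted p = 0.000123) and -0.93 without ABA replicate 3.

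LRX2, which acts beside LRX1 in root hairs, had 2.58, 3.31, 1.99 and 2.97 CPM with ABA+glucose, 2.06, 2.21, 3.57 and 2.43 CPM with ABA, 5.74, 5.03, 4.95 and 6.58 CPM with glucose, and 3.51, 5.49, 5.55 and 6.66 CPM in controls. All ABA libraries but replicate 3 were below every control, and the log2 fold change was -1.07 ± 0.207 (edgeR adjusted p = 0.000307), and -1.23 without that replicate. LRX4 had 19.2, 21.7, 16.2 and 22.9 CPM with ABA+glucose, 18.1, 22.4, 30.1 and 23.2 CPM with ABA, 33.7, 28.2, 31 and 35.7 CPM with glucose, and 18.8, 38.4, 35.5 and 30.5 CPM in controls. Its log2 fold change of -0.41 ± 0.168 was not called with all libraries (edgeR adjusted p = 0.0625), and was -0.55 ± 0.161 without ABA replicate 3 (edgeR adjusted p = 0.00933). LRX4 was also called without control replicate 1, at -0.59 (edgeR adjusted p = 0.00174), under upper-quartile scaling, at -0.46 (edgeR adjusted p = 0.0328), and with length and GC offsets, at -0.47 (edgeR adjusted p = 0.0308). LRX5 was at 45.1 ± 13.4 CPM with ABA and 40.1 ± 4.49 CPM in controls (SD, n = 4 each). Its log2 difference of 0.15 was not called, and it was -0.05 without ABA replicate 3.

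The rises called among the leucine-rich repeat extensins were those of PEX3 and PEX4, both described as pollen-specific. PEX3 had 143, 188, 123 and 129 CPM with ABA+glucose, 150.0, 155, 269 and 150.0 CPM with ABA, 122, 125, 115 and 164 CPM with glucose, and 103, 129, 145 and 152 CPM in controls. Its log2 fold change of 0.45 ± 0.168 (edgeR adjusted p = 0.0443) was 0.20 ± 0.126 without ABA replicate 3 (edgeR adjusted p = 0.228). PEX4, at 0.57 ± 0.211 (edgeR adjusted p = 0.0408), came to 0.51 ± 0.223 without that library (edgeR adjusted p = 0.0754). Neither call held without it, and neither held under upper-quartile scaling, at edgeR adjusted p = 0.0682 for PEX3 and 0.0655 for PEX4. Both were also lost with length and GC offsets and in the compared groups only. PEX3 was lost too with DESeq2 (adjusted p = 0.0986), the robust fit, and without glucose replicate 1 or 2 or control replicate 1, 2 or 3. PEX4 was lost too without ABA replicate 2 or control replicate 3 or 4. PEX4 overlaps an annotated locus on the opposite strand that was not counted.

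Among the 7 tested extensins and extensin-like genes, 2 were called lower and 1 higher with ABA, beside 18% and 16.1% of all tested genes. AT2G43150 had 12.6, 22.1, 14.6 and 19.4 CPM with ABA+glucose, 15.7, 18.8, 35.8 and 18.6 CPM with ABA, 30.3, 36.4, 31.9 and 38.6 CPM with glucose, and 32, 39.1, 44.4 and 43.2 CPM in controls. The log2 fold change was -0.87 ± 0.188 (edgeR adjusted p = 0.000919), and -1.17 without ABA replicate 3, the only ABA library that reached the control range. AT2G46630, a putative extensin, fell by 0.88 on the log2 scale (SE 0.184; edgeR adjusted p = 0.000686), with 10.9 ± 4.54 CPM with ABA and 19.7 ± 1.84 CPM in controls (SD, n = 4 each), and was at -1.14 without ABA replicate 3. Of the Ole e 1 genes, AT2G27385 was called lower, at -0.61 ± 0.104 (edgeR adjusted p = 7.78e-05), and -0.58 without ABA replicate 3.

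**Figure D3:**
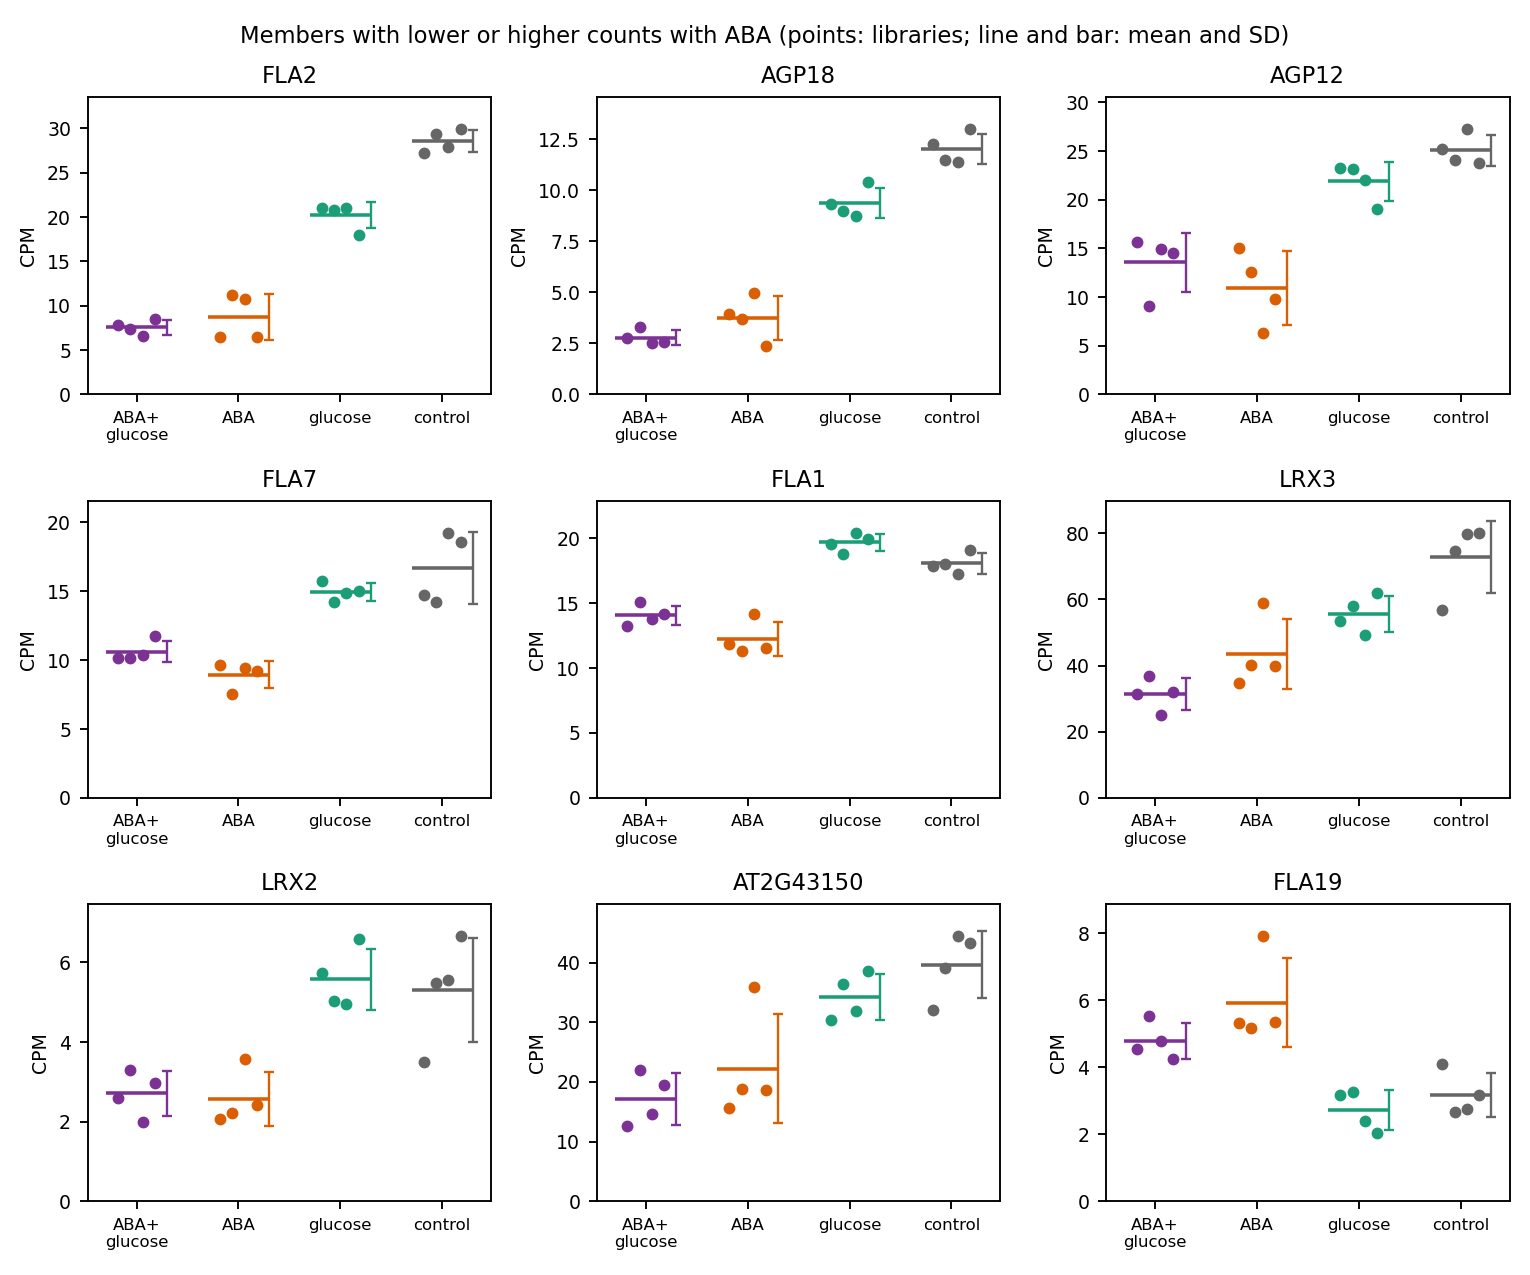
CPM of 9 genes in each library (points), with group mean (line) and SD (bar). FLA2, AGP18, AGP12, FLA7 and FLA1 show ABA libraries below every control library, and FLA19 shows the opposite, with the highest point (7.9 CPM) in ABA replicate 3.

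The extensins EPR1 and EXT3 and the extensin-like AT5G59170 stood high in ABA replicate 3. EPR1 had 185, 306, 167 and 208 CPM with ABA+glucose, 218, 213, 653 and 217 CPM with ABA, 219.5, 232, 215 and 292 CPM with glucose, and 140.1, 201, 249.8 and 223 CPM in controls, so that replicate 3 held 3.02 times the mean of the other ABA libraries. EXT3 had 101, 159, 95.1 and 132 CPM with ABA+glucose, 124, 138, 322 and 144 CPM with ABA, 135, 129, 133 and 152 CPM with glucose, and 105, 146, 137 and 140.4 CPM in controls, a ratio of 2.38. AT5G59170 had 16.1, 24.3, 18.2 and 16.1 CPM with ABA+glucose, 20.7, 20.2, 42.7 and 19.4 CPM with ABA, 16.5, 16.5, 14.8 and 19.7 CPM with glucose, and 17.3, 12.5, 18.4 and 16.6 CPM in controls, a ratio of 2.12. The other 3 ABA libraries lay inside the control range for EPR1, and for EXT3 within the span of the controls. For AT5G59170 they lay just above the highest control.

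With all libraries the log2 fold changes with ABA were 0.67 ± 0.276 for EPR1 and 0.46 ± 0.214 for EXT3, neither called (edgeR adjusted p = 0.0638 and 0.105). Without ABA replicate 3 they were 0.09 ± 0.158 and 0.04 ± 0.124. EPR1 was called higher when low counts were not filtered out, at 0.69 (edgeR adjusted p = 0.0352). It was also called without ABA replicate 1, 2 or 4, at 0.83 to 0.84 (edgeR adjusted p = 0.0283 to 0.0294). EXT3 was called without ABA replicate 1, at 0.62 (edgeR adjusted p = 0.032). AT5G59170 was called higher with all libraries, at 0.64 ± 0.199 (edgeR adjusted p = 0.0164), and was at 0.31 ± 0.128 without replicate 3 (edgeR adjusted p = 0.0582).

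The departure of ABA replicate 3 reached several other members. That library was over 2-fold above the mean of the other ABA libraries in 5 of the 42 tested genes (11.9%), against 123 of 17083 genes (0.720%), and the median log2 deviation was 0.36 in the members and -0.0055 over all genes. It was not a uniform rise, since AGP12 was at 0.503 times and AGP24 at 0.357 times the mean of the other ABA libraries. Median deviations over 4 classes of gene length and of GC content stayed between -0.021 and 0.026 in that library. Without it, 2 of 43 tested members were called higher (4.65%) and 15 lower (34.9%) with ABA, beside 17.5% and 19.6% of all genes in that fit. The 2 were FLA19 and AT5G13140, an Ole e 1 gene at 0.49 ± 0.185 (edgeR adjusted p = 0.0391), and AGP31, AGP26 and LRX4 joined the 12 called lower.

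**Figure D4:**
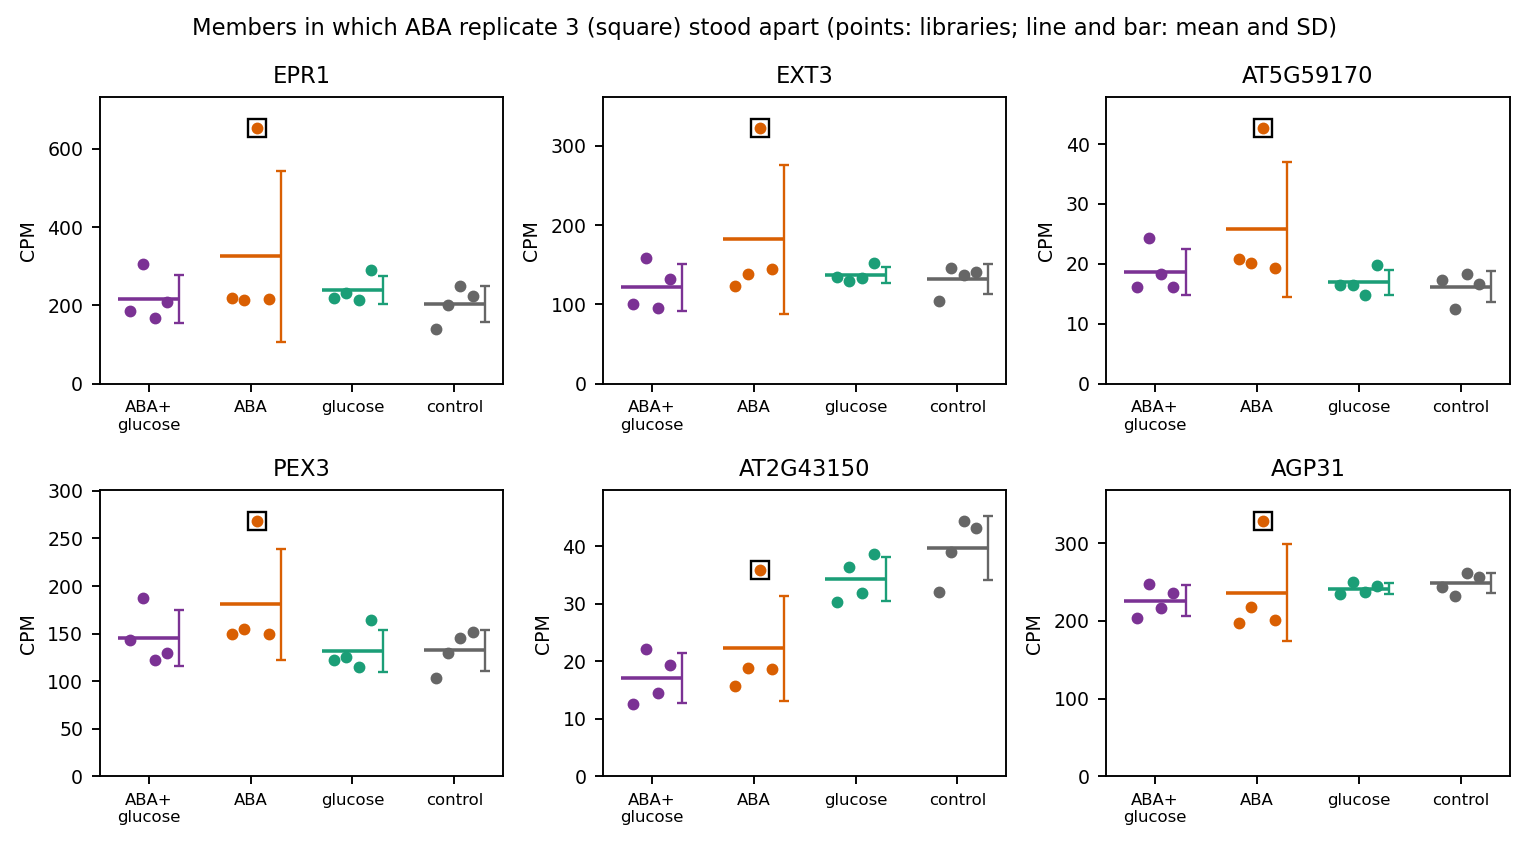
CPM in each library for 6 genes in which ABA replicate 3 (square) lay far above the other ABA libraries. It was at 653 CPM for EPR1, 322 CPM for EXT3 and 42.7 CPM for AT5G59170, while the other ABA libraries stayed close together.

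Glucose alone moved few of these genes. FLA2 and AT2G27385 were called lower and AGP26 higher, that is 1 higher and 2 lower of 42, where 3.85% of all tested genes were called higher and 7.49% lower. The median log2 fold change was -0.07, against -0.01 over all genes, and with length and GC offsets both changed sign, to 0.03 and 0.02. Every glucose library lay above every control library in 1 member and below in 5, beside 8.07% and 11.4% of all tested genes. In FLA2 the glucose libraries, at 18 to 21.1 CPM, all lay below the controls, at 27.3 to 29.9 CPM. The fitted log2 change was -0.49 ± 0.118 (edgeR adjusted p = 0.00828).

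AT2G27385 had 9.44, 8.91, 9.12 and 10.3 CPM with ABA+glucose, 9.88, 11.1, 9.2 and 8.94 CPM with ABA, 13.2, 11.2, 9.44 and 11.3 CPM with glucose, and 14.3, 13.4, 16.3 and 15.6 CPM in controls. The glucose libraries lay below all controls, at a log2 fold change of -0.40 ± 0.103 (edgeR adjusted p = 0.0135), which came to -0.20 (edgeR adjusted p = 0.239) once GC content and gene length entered as offsets. AT2G27385 was also not called without glucose replicate 3 (-0.32; edgeR adjusted p = 0.0714) or control replicate 3 (-0.35; edgeR adjusted p = 0.0519). In the RefSeq TAIR10.1 annotation this gene is the neighbour of EPR1 on the opposite strand. EPR1 was not called with glucose, at 0.24 ± 0.276, nor in the fit without ABA replicate 3, at 0.24 ± 0.147. AGP26, a classical arabinogalactan protein, had 28.2, 31.3, 29.9 and 28.8 CPM with ABA+glucose, 21, 23.6, 32.8 and 23.5 CPM with ABA, 33.5, 33.3, 36.4 and 36.2 CPM with glucose, and 29.6, 25.8, 27 and 29.2 CPM in controls. Every glucose library was above every control library, at 0.32 ± 0.0975 (edgeR adjusted p = 0.0354). That call was lost without any of glucose replicates 2, 3 and 4 or control replicates 2 and 3, at values of 0.30 to 0.34.

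LRX3 and AGP18 came close with glucose, at -0.39 ± 0.133 and -0.36 ± 0.124 (edgeR adjusted p = 0.0625 and 0.0645). Both were called in the fit without ABA replicate 3, although that library is in neither group of this comparison. Both were also called in the compared groups only (edgeR adjusted p = 0.013 and 0.0253). LRX3 was called too with length and GC offsets, without the filter and without control replicate 1 (edgeR adjusted p = 0.0151, 0.0499 and 0.0208). AGP18 was called too without ABA replicate 4 (edgeR adjusted p = 0.0333). The fit without ABA replicate 3 called 6 of 43 members lower with glucose (14%), beside 10.5% of all genes, with AT2G46630 and AGP7 as the others added.

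**Figure D5:**
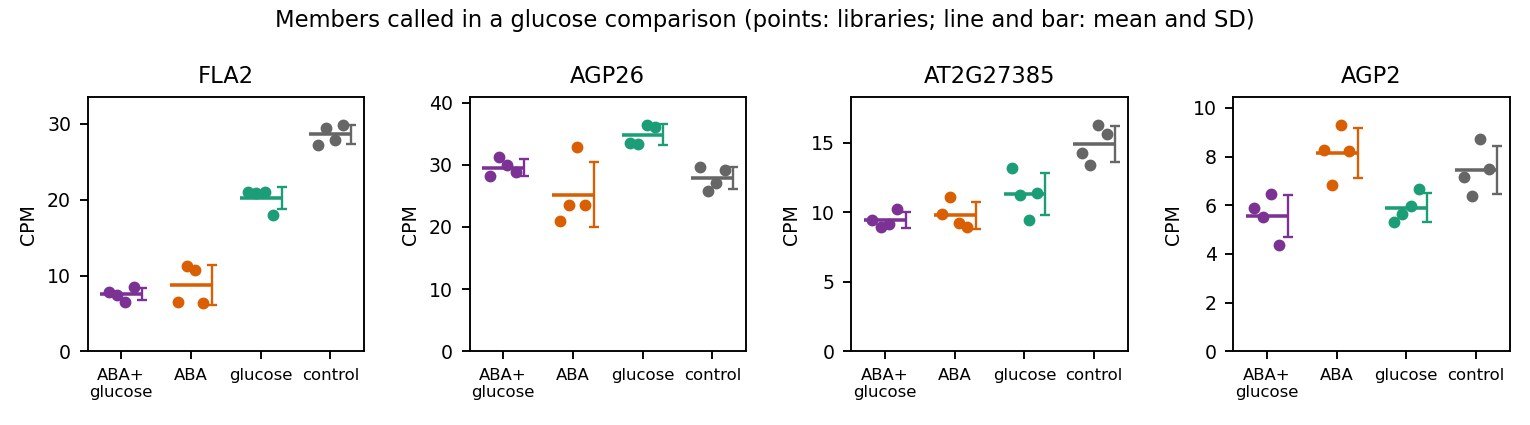
CPM in each library of the 4 genes called in a comparison of glucose, with group mean (line) and SD (bar). The glucose libraries of FLA2 lie between those with ABA and the controls, and AGP2 is lower with ABA+glucose than with ABA.

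With ABA+glucose, set against the same controls, AGP18 and FLA2 again fell the most, and LRX3, AT2G43150 and FLA12 fell to less than 1 in 2 of the control level by the fitted folds. In all, 1 member was called higher and 15 lower, where 11.2% of all tested genes were called higher and 14.1% lower. The median log2 fold change of the members was -0.14, against 0.01 over all genes. All ABA+glucose libraries lay above all controls in 2 members and below in 13, beside 12.8% and 15.2% of all tested genes. The fitted log2 fold changes were -2.11 ± 0.148 for AGP18 (4.31-fold lower; edgeR adjusted p = 1.56e-10) and -1.91 ± 0.132 for FLA2 (3.77-fold lower; edgeR adjusted p = 1.18e-10).

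LRX3 was at -1.21 ± 0.138 (2.32-fold lower; edgeR adjusted p = 4.21e-07) and AT2G43150 at -1.20 ± 0.19 (2.3-fold lower; edgeR adjusted p = 4.34e-05). In both genes every ABA+glucose library lay below every control. FLA12 was called at -1.12 ± 0.321 (edgeR adjusted p = 0.0128), and came to -0.75 (edgeR adjusted p = 0.0882) without control replicate 2. The other members called lower were AGP24, LRX2, AGP12, AT2G46630, AT2G27385, FLA7, LRX4, AGP2, FLA1 and AGP20, with log2 fold changes of -0.95 to -0.24. AGP20 was close to the threshold, at -0.24 ± 0.0856 (edgeR adjusted p = 0.0469), and was not called with length and GC offsets (-0.12; edgeR adjusted p = 0.388) or DESeq2 (adjusted p = 0.155), nor without control replicate 1 (-0.19; edgeR adjusted p = 0.147). AGP2, at -0.43 ± 0.135 (edgeR adjusted p = 0.0218), was not called without ABA+glucose replicate 4 (-0.32; edgeR adjusted p = 0.102) or control replicate 3 (-0.34; edgeR adjusted p = 0.101).

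FLA19 was the member called higher with ABA+glucose, at 0.58 ± 0.183 (edgeR adjusted p = 0.0217). Without ABA+glucose replicate 2, control replicate 2 or control replicate 3 it was at 0.50 to 0.51 and was not called. EPR1 and EXT3 were near the controls, at 0.09 ± 0.275 and -0.12 ± 0.215. In the fit without ABA replicate 3, a library in neither group here, they were at 0.09 ± 0.147 and -0.11 ± 0.115. The comparisons with ABA, with glucose and with ABA+glucose share the same 4 control libraries.

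The addition of glucose to ABA moved 1 member past the threshold. AGP2, a classical arabinogalactan protein, had 5.88, 5.52, 6.48 and 4.39 CPM with ABA+glucose, 8.28, 6.82, 9.31 and 8.24 CPM with ABA, 5.31, 5.65, 5.96 and 6.68 CPM with glucose, and 7.17, 6.4, 8.73 and 7.5 CPM in controls, with every ABA+glucose library below every ABA library. The log2 fold change of ABA+glucose against ABA was -0.56 ± 0.133 (edgeR adjusted p = 0.0146), and it was -0.45 (edgeR adjusted p = 0.0824) without ABA+glucose replicate 4 and -0.50 without ABA replicate 3. Of the 42 members, 0 were called higher and 1 lower, beside 1.16% and 3.24% of all tested genes. An unadjusted p under 0.05 (edgeR) was found in 12 of the 42 members, beside 2570 of all 17083 genes. DESeq2 called 0 higher and 2 lower of the 41 members to which it gave an adjusted p, beside 1.23% and 3.53% of all genes. The ABA+glucose libraries lay wholly above the ABA libraries in 2 members and wholly below in 2, beside 4.15% and 5.65% of all tested genes. EPR1 and EXT3 were at -0.58 and -0.57 in this comparison with all libraries, and at 0.00 and -0.15 without ABA replicate 3. Without that library, AGP26 and FLA1 were called higher with ABA+glucose than with ABA, at 0.39 ± 0.0737 and 0.28 ± 0.0812 (edgeR adjusted p = 0.00101 and 0.046).

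When ABA was added to glucose, 2 members were called higher and 9 lower, where 5.82% of all tested genes were called higher and 5.95% lower. AGP18 was at -1.75 ± 0.154 (edgeR adjusted p = 1.05e-08) and FLA2 at -1.42 ± 0.137 (edgeR adjusted p = 4.91e-08). LRX2, AT2G43150, LRX3, AGP12, LRX4, FLA7 and FLA1 followed, at -1.03 to -0.48. None of the ABA+glucose libraries of these 9 genes reached the glucose range. The median log2 fold change of the members was -0.15, against 0.01 over all genes. The ABA+glucose libraries lay wholly above the glucose libraries in 3 members and wholly below in 11, beside 9.54% and 9.95% of all tested genes.

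The rises in that comparison were those of FLA19, at 0.80 ± 0.19 (edgeR adjusted p = 0.00525), and of AT4G18596, an Ole e 1 gene, at 0.78 ± 0.185 (edgeR adjusted p = 0.00576). AT4G18596 had 9.44, 11.7, 9.86 and 8.98 CPM with ABA+glucose, 9.88, 9.59, 7.36 and 8.55 CPM with ABA, 4.88, 8.56, 5.42 and 4.35 CPM with glucose, and 8.07, 7.07, 5.85 and 11.2 CPM in controls. The glucose libraries were lower than the ABA+glucose libraries without overlap, and the controls spanned most of that distance. Its deposited values held decimals in 15 libraries and it overlaps a counted locus on the opposite strand, so the division of reads between the loci is uncertain.

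Whether the glucose effect depended on ABA was tested as the glucose difference with ABA minus that without it. No member was called in either direction (edgeR), where 3.23% of all tested genes were called higher and 2.07% lower. In all, 5 of the 42 members had an unadjusted p under 0.05 (edgeR), beside 3313 of all 17083 genes. DESeq2 likewise called 0 of the 38 members to which it gave an adjusted p, beside 3.37% of all genes called higher and 2.99% lower. The interaction was 0.34 ± 0.193 for FLA2 and -0.05 ± 0.213 for AGP18 on the log2 scale. It was -0.82 ± 0.389 for EPR1 with all libraries and -0.23 ± 0.216 without ABA replicate 3. The fit without that library called AT2G46630, at 0.79 ± 0.202 (edgeR adjusted p = 0.0161). It was 1 of 43 members, where that fit called 4.90% of all genes higher and 3.40% lower.

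ATEXT4, a classical extensin, was too scarce for the test. It had 0.178, 0.709, 0.147 and 0.337 CPM with ABA+glucose, 0, 0.0922, 0 and 0.392 CPM with ABA, 0.343, 0.441, 1.7 and 1.82 CPM with glucose, and 1.72, 0.166, 0.444 and 0.211 CPM in controls. The libraries with ABA, at up to 0.709 CPM, overlapped the controls. Control replicate 1, at 1.72 CPM, was far above the other controls, at 0.166 to 0.444 CPM, and the glucose libraries also spread widely. When low counts were not filtered out, ATEXT4 was called lower with ABA, at -2.37 (edgeR adjusted p = 0.0458), and DESeq2 gave -2.39 (adjusted p = 0.0435).

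Extensins and arabinogalactan proteins need prolyl hydroxylation and sugar transfer in the secretory pathway, and 38 genes for these steps were listed, of which 32 were tested. With ABA, 3 of these were called higher and 8 lower, beside 16.1% and 18% of all tested genes, and their median log2 fold change was -0.04. GALT6, a galactosyltransferase that starts arabinogalactan chains, rose by 0.90 ± 0.0758 on the log2 scale (edgeR adjusted p = 2.40e-09). SERGT1, which adds galactose to the serines of extensins, was lower at -0.83 ± 0.126 (edgeR adjusted p = 1.93e-05). FUT6, a fucosyltransferase for arabinogalactan proteins, was at -1.55 ± 0.38 and GLCAT14C, a glucuronosyltransferase, at -0.79 ± 0.191 (edgeR adjusted p = 0.00295 and 0.00238). Of the arabinosyltransferases that build extensin side chains, 1 of the 7 tested was called, ExAD, which was lower at -0.40 ± 0.0906. The prolyl hydroxylases moved little, with P4H4 at 0.25, P4H9 at 0.19 and P4H5 at -0.27, all called.

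With glucose, 3 of the 32 were called, all higher, beside 3.85% of all tested genes. The galactosyltransferase KNS4 was at 0.97 ± 0.248 (edgeR adjusted p = 0.0133) and the prolyl hydroxylases P4H1 and P4H3 were at 0.31 and 0.27. With ABA+glucose against control, 3 were called higher and 5 lower, beside 11.2% and 14.1% of all tested genes. Against glucose, 1 was called higher and 2 lower, beside 5.82% and 5.95%. In the interaction, GALT6 was the gene called, at -0.42 ± 0.107 (edgeR adjusted p = 0.0245).

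Some markers of the seed and its endosperm were called with ABA in the same libraries and others were not. CRA1, a storage globulin, averaged 1283 CPM with ABA+glucose, 1770 CPM with ABA, 146 CPM with glucose and 106 CPM in controls. MAN7, an endosperm mannanase, was at a log2 fold change of 1.54 with ABA against control, whereas EXPA2 was at -0.10 and was not called. ICL, MLS and PCK1, which serve the use of storage lipid, were not called either, at -0.01, 0.04 and -0.10. Their part in the changes of the wall protein genes was not tested.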

How the data were processed

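RNA sequencing was read from 16 wild-type libraries, grouped by their labels. Poly(A) libraries were sequenced as paired ends, per the labels' protocols, and the submitters' processing notes name Trimmomatic 0.38, kallisto 0.44.0 and sleuth, with no role given. The genome build and annotation are not given in the sources used here. The authors deposited estimated counts per gene, which held decimals for 4057 genes (6.44% to 8.57% of the values of a library) and were rounded here. They also deposited per-sample TPM-type columns whose further scaling is not stated, used here as a length-scaled signal for levels between genes and for nothing else. 16 columns of other samples were not used.

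Counts were tested in R 4.3.3 with edgeR 4.0.16: TMM scaling, filterByExpr with a minimum count of 10, a single fit of 4 group means, quasi-likelihood F tests and Benjamini-Hochberg adjustment over 17083 genes, with calls at an adjusted p under 0.05. Fold changes are on the log2 scale as the group in front over the group after it, and SE is the log2 fold change divided by the root of F. The estimate of spread comes from all 4 groups, so an SE also reflects libraries outside the groups compared. The common biological coefficient of variation was 7.88% with 12 residual degrees of freedom. CPM use TMM-scaled library sizes, and the limit for a count of 0 covers counting error only. The steps were tested on simulated counts.

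The members and gene lists were chosen with earlier results of these data known. Named were, for each comparison, up to 5 called rises and 5 called falls by size, the 10 highest by signal, the 5 least changed with ABA at 5 CPM or more, and well-known members. Members outside that rule, such as FLA7, AGP20, AGP24, AGP7, AGP30, EXT2, AT2G46630 and AT5G13140, were named after their values were seen. RefSeq TAIR10.1 was used for neighbours, gene length and GC content only. Alternatives were other scalings, offsets for gene length and GC content, no filter, DESeq2 1.42.0, only the compared groups, the replicate block, a robust fit and leaving out each library.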

Additional observations from a re-analysis of the deposited data

Results flagged for a closer look

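Within groups of 4 libraries, 12 values of named members stood far from the other 3, among 124 groups checked, where chance gives about 1 in 20. Of these, 7 were in ABA replicate 3, which was the highest ABA library for EPR1 (653 CPM), AGP31 (329 CPM), EXT3 (322 CPM), PEX3 (269 CPM), AT5G59170 (42.7 CPM), AT2G43150 (35.8 CPM) and FLA19 (7.9 CPM). The other ABA libraries were at 213 to 218 CPM for EPR1 and 150.0 to 155 CPM for PEX3. AGP12 was at 9.07 CPM in ABA+glucose replicate 2, below the other ABA+glucose libraries. AGP17 was at 1.48 CPM in ABA+glucose replicate 4, the lowest of its group. With glucose, FLA2 was at 18 CPM in replicate 4 and AGP1 at 22.8 CPM in replicate 3, each below the others of the group, and AGP19 was at 0.857 CPM in replicate 1, above the others.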

How the results depend on the processing

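The members called higher with ABA, 4 with all libraries, came to 2 under upper-quartile scaling, length and GC offsets, the compared groups only and the robust fit, and to 2 to 8 when single libraries were left out (8 of 43 without ABA replicate 1, beside 15.2% of all genes, 2 without ABA replicate 3 or control replicate 2 or 3). The 12 called lower came to 11 to 14 under the other settings, beside 13.0% to 22.3% of all genes. With single libraries left out they came to 12 to 15, beside 15.3% to 19.6%. With glucose, the 2 called lower came to 5 in the compared groups only, to 1 without glucose or control replicate 3 and to 6 without ABA replicate 3, and the 1 called higher to 0 without glucose replicate 2, 3 or 4 or control replicate 2 or 3. For ABA+glucose against control, leaving out single libraries gave 0 to 3 higher and 13 to 16 lower, beside 8.69% to 14.4% and 11.9% to 16.3% of all genes. For ABA+glucose against ABA, length and GC offsets, no filter and DESeq2 called 2 lower, LRX3 being the gene added, beside 3.47%, 2.46% and 3.53%. Leaving out libraries gave 0 to 2 higher and 0 to 3 lower, beside 0.623% to 1.41% and 2.24% to 3.64%. ABA+glucose against glucose kept 2 higher and gave 9 to 10 lower, beside 4.40% to 7.59% and 4.22% to 9.34% of all genes. The interaction gave 0 to 1 higher and 0 lower, beside 1.95% to 4.90% and 1.32% to 3.40%. The cause was not tested. No member changed sign with a call on both sides. Among all genes, upper-quartile scaling moved the share of higher calls with ABA to 34.9%, against 47.2%, and the offsets moved it with glucose to 45.3%, against 34.0%.

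With the replicate block, ABA+glucose against control had 2 members higher (FLA19 and AT5G13140) and 14 lower, beside 11.4% and 13.8% of all genes. The other counts of member calls were as without the block. Same-numbered libraries did not deviate together: 2 of 24 pairs had r over 0.1 (-0.155 to 0.113), and 4 of 16 libraries correlated best with their own number.

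The filter on low counts left 48 of the 90 genes untested, and without it 66 of the 90 entered the test.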
